A study of Mus musculus with 12 samples.

Results

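Editing of Ikzf1 and Ikzf3 without stabilization of β-catenin was described from 6 of the 12 libraries of the series, the 3 ERT2 libraries labelled KO and the 3 ERT2 libraries labelled WT, over all 12151 genes of the expression table. The libraries were chosen by their labels alone, and no expression value was used. All came from pre-B cells of Ctnnb1Ex3fl/+ mice 6 to 12 weeks old, transformed with BCR-ABL1 to model acute lymphoblastic leukemia of B cells (B-ALL), first grown with 10 ng/ml of IL-7, the pre-B cell growth factor, and then without it. Cells of the WT group had received Cas9 with nontargeting guides, and cells of the KO group Cas9 with guides against Ikzf1 and Ikzf3. Both groups then received a GFP vector for ERT2, the tamoxifen-binding receptor domain, with no Cre, so that exon 3 of Ctnnb1 was not excised by design. The labels' treatment text, which is shared by all groups, sets the time at 1 day after 4-OHT, the tamoxifen metabolite that activates Cre-ERT2, but words it for chromatin experiments and does not state it separately for RNA or for ERT2 cells. The other 6 libraries carried Cre-ERT2 and are used only where the same difference is compared between the vectors. The lines had been grown from single cells, and the labels do not say how many lines stand behind the 3 replicates of a group. Editing and a difference between lines therefore cannot be told apart, and p-values measure only the spread between these libraries, which may be technical.

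Ikaros, the product of Ikzf1, and Aiolos, the product of Ikzf3, are zinc finger proteins of lymphoid cells that bind DNA at sites with the core GGGAA. They recruit the NuRD chromatin remodeling complex and can repress or activate their targets. In pre-B cells Ikaros and Aiolos are known to restrain proliferation driven by the pre-B cell receptor, to silence Myc and the surrogate light chain, and to limit glucose uptake, and loss of IKZF1 is a frequent lesion of BCR-ABL1+ B-ALL. Compared here were the mRNA levels of WT cells and of cells labelled as double knockout for both genes.

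The guides are shown because they place the edit within each gene. Each is written from the 5′ end as in the study's oligonucleotide list, and the capitals mark the GGG that follows the site on the matched strand of the reference transcript, the motif that Cas9 requires.
Ikzf1 site: ctggagtgtcactgactgggGGG
Ikzf3 site: attatgaagccggagcccatGGG
nontargeting guide: gcgaggtattcggctccgcg
The Ikzf1 guide matched the minus strand of GRCm38 at chromosome 11, 11707798 to 11707817, within exon 3 in the longest coding sequence that holds it, and its cut falls after base 56 of the 1605 coding bases, in codon 19. This site was held by 5 of the 6 coding transcripts of Ikzf1. The Ikzf3 guide also matched the minus strand, at chromosome 11, 98490523 to 98490542, in exon 4 of the only coding transcript, and its cut falls after base 227 of 1521, in codon 76. Neither guide matched the transcripts of another gene in full, and the nontargeting guide matched none.

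The values are the authors' normalised log2 expression, so a difference of 1 between groups is a 2-fold change. Between ERT2 KO and ERT2 WT libraries 7175 genes, or 59.0% of those tested, were called at an adjusted p under 0.05 by limma. They divided into 3616 higher (29.8%) and 3559 lower (29.3%), and 7654 of 12151 would have passed an unadjusted threshold of 0.05. This even division depends on the scaling, since 2866 were higher and 4747 lower after each library was centred on its median. The groups did not overlap in 7953 genes (65.5%). Most called differences were small, with a median size of 0.19. A size of at least 1 was reached by 238 genes (1.96%), 148 higher and 90 lower, and a size of at least 2 by 32 and 11. The median SD of 3 replicates was 0.030 in WT and 0.029 in KO libraries.

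Called differences of at least 1 were found only among genes with a mean of 6 or more. At a mean of 6 to 8, 47 genes rose and 18 fell by at least 1. None of the 2556 genes with a mean under 6 differed by 1, and among the 1290 genes with a mean under 4 the median size was 0.017. Of the 148 rises of at least 1, 87 started from a WT mean under 8, and of the 90 falls 41 ended at a KO mean under 8. In 9 genes that ranged over more than 1, all 6 WT libraries of the series lay within 0.01 of the gene's lowest value, and that lowest value ran from 4.15 to 6.60. A value of 6 to 7 can therefore be a gene's own floor, and whether such a value stands for RNA was not tested. The differences of genes near such a floor may understate the change.

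**Figure D1:**
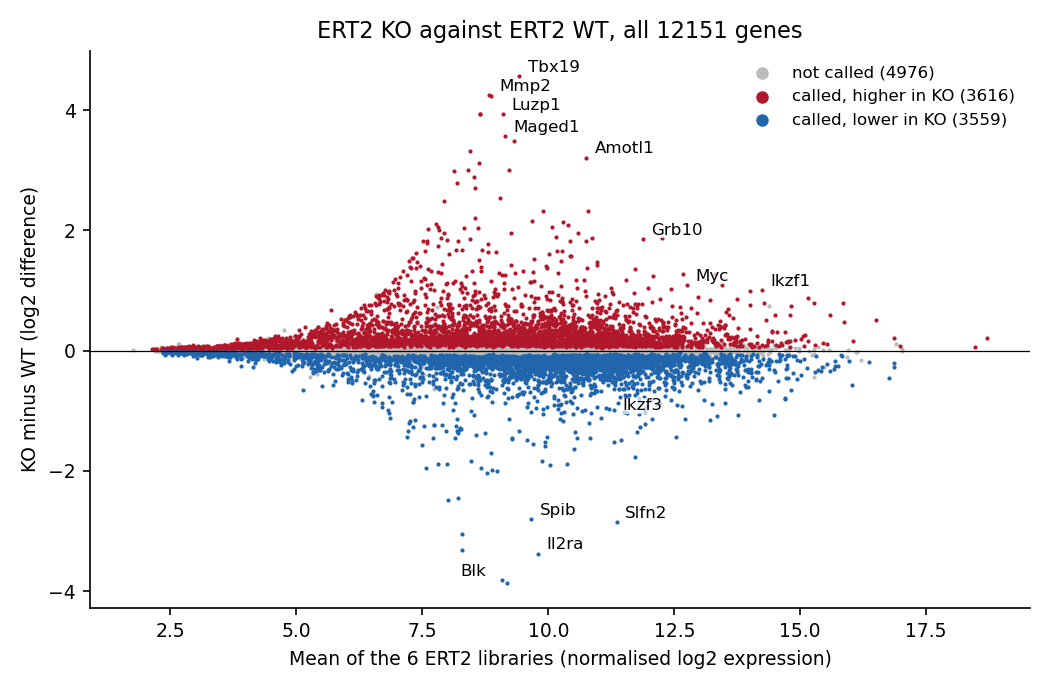
Difference between ERT2 KO and ERT2 WT libraries (vertical axis, log2) against the mean of the 6 libraries (horizontal axis, normalised log2 expression), with 1 point a gene, red where called higher, blue where called lower and grey where not called. Differences of 1 or more appear only above a mean of 6, with Tbx19 at 4.57 at the upper end and Blk at -3.81 close to the lower end.

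The edited genes did not lose their mRNA. Ikzf1 had normalised values of 13.75, 13.74 and 13.73 in WT libraries and of 14.75, 14.74 and 14.76 in KO libraries. The groups did not overlap, and the level in KO libraries was higher by 1.01 (SE 0.018, limma adjusted p 1.93e-13). Ikzf3 had values of 11.59, 11.68 and 11.61 in WT and of 10.97 to 10.998 in the 3 KO libraries, again without overlap, and fell by 0.65 (SE 0.043, limma adjusted p 5.23e-08). The label KO and the guide genotype state no mRNA level, and the rise of Ikzf1 does not show whether its protein was lost. A value per gene does not tell transcripts in frame from others. The study describes western blots for loss of both proteins in its clonal lines, without tying a line to a library. KO therefore names the libraries labelled so, and every direction given here rests on that label. Of the related genes, Ikzf4 (Eos) rose by 0.46 from 5.84 to 6.29, and Ikzf5 (Pegasus), at 9.87 to 10.14 in WT and 9.75 to 10.13 in KO libraries, was not called. Ikzf2 was not among the genes analysed here.

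Near each of the edited genes lies a gene of the same small family of adaptors, and both were higher in KO libraries. Grb10, the fourth measured gene after Ikzf1 on chromosome 11 (11930508 to 12038683, minus strand), encodes an adaptor that dampens insulin receptor signaling and is imprinted. It measured 10.88, 10.96 and 10.99 in WT and 12.79, 12.78 and 12.83 in KO libraries, and thus rose by 1.86 (SE 0.036, limma adjusted p 3.49e-13). Grb7, which lies next to Ikzf3 (98446394 to 98455373, plus strand), encodes a related adaptor of receptor tyrosine kinases and measured 6.91, 6.89 and 6.86 in WT and 8.05, 8.03 and 8.06 in KO libraries. It rose by 1.16 (SE 0.039, limma adjusted p 5.51e-11), without overlap. Ddc, which encodes aromatic amino acid decarboxylase and lies between Ikzf1 and Grb10, rose by 0.51, and Fignl1, directly after Ikzf1, by 0.16. On the side before Ikzf1, Tns3 rose by 0.30 and Gm11991 fell by 0.18, while Hus1, Zpbp and 4930415F15Rik were not called. Beyond Grb7, Stard3 rose by 0.089, and Mien1, Pgap3 and Ppp1r1b were not called. After Ikzf3, Thra rose by 0.30 and Zpbp2 and Ormdl3 by 0.16 each, while Psmd3 and Med24 were not called. These neighbours were looked up after the values were known.

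**Figure D2:**
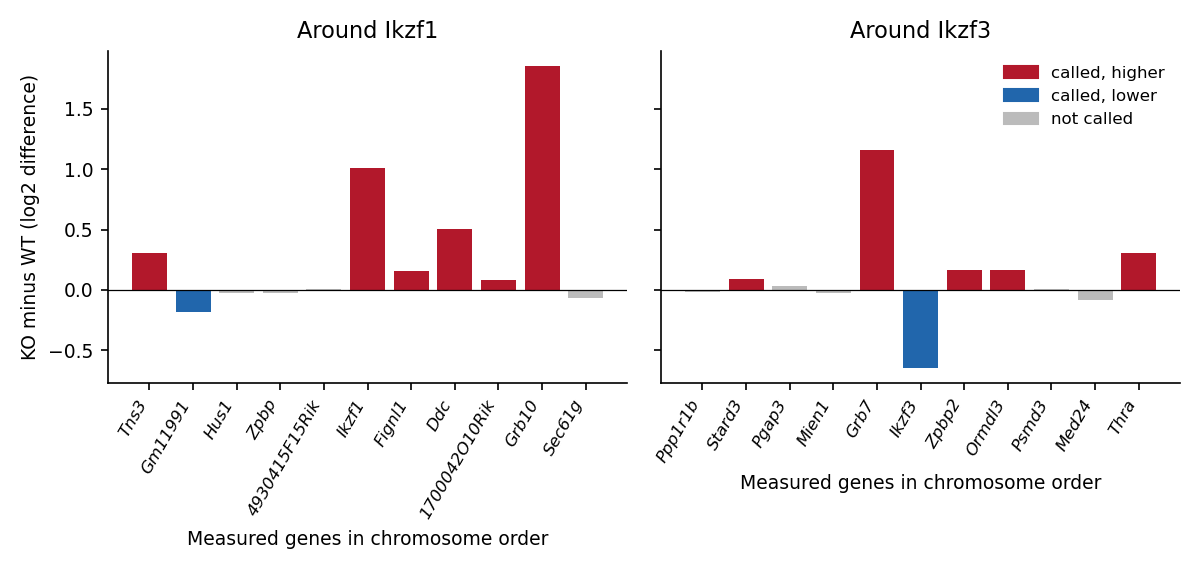
Difference between ERT2 KO and ERT2 WT libraries (vertical axis, log2) for the 5 measured genes on either side of Ikzf1 and of Ikzf3, in chromosome order, red where called higher, blue where called lower and grey where not called. Grb10 (1.86) and Grb7 (1.16) stand above the other neighbours, of which Ddc (0.51) is next.

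Large falls were found in genes of lymphocyte surface proteins and of B cell signaling. Blk, a Src family kinase of B cells, measured 10.96, 10.94 and 11.05 in WT and 7.13, 7.15 and 7.24 in KO libraries. Every KO library lay more than 3 units under every WT library, and Blk fell by 3.81 (SE 0.039, limma adjusted p 1.13e-15). Il2ra, the α chain of the IL-2 receptor (CD25), measured 11.48, 11.49 and 11.50 in WT and 8.09, 8.08 and 8.18 in KO libraries, and thus fell by 3.38 (SE 0.031, limma adjusted p 4.98e-16). Slfn2, a Schlafen gene of lymphocyte quiescence, measured 12.79, 12.77 and 12.78 in WT and 10.05, 9.88 and 9.86 in KO libraries, and thus fell by 2.85 (SE 0.048, limma adjusted p 1.07e-13). Spib, an ETS family transcription factor of the B lineage, measured 11.06, 11.12 and 11.01 in WT and 8.24, 8.20 and 8.34 in KO libraries, and thus fell by 2.80 (SE 0.040, limma adjusted p 3.04e-14). None of these genes overlapped between groups. As linear ratios the falls were 10.4-fold for Il2ra and 7.22-fold for Slfn2.

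The remaining falls taken by the same rule, which asked for a level above the median gene, ran from 1.90 to 1.49. Rasgrp1, which activates Ras downstream of antigen receptors, fell by 1.90 (SE 0.039), Sorcs2, a sortilin-related receptor, by 1.89 (SE 0.033) and the tubulin gene Tubb2b by 1.83 (SE 0.035). Sdc4, the heparan sulfate proteoglycan syndecan 4, fell by 1.77 from 12.61 to 10.84. The interferon-inducible genes Gbp2 and Pyhin1 fell by 1.64 and 1.52, the adhesion molecule Cd2 by 1.58 and Btg2, an antiproliferative p53 target, by 1.55. Serinc5, a membrane protein, fell by 1.52, and Fcgr2b, the inhibitory Fc receptor of B cells, by 1.49. Below the median level, and named after their values were seen, Dock8, an exchange factor for Cdc42 in lymphocyte migration, fell by 3.64 (10.31 to 6.67), the Wnt receptor gene Fzd6 by 3.31 (9.94 to 6.63) and Kynu, a kynureninase, fell by 3.05 (9.81 to 6.76).

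The largest rises came from low WT levels. Tbx19, a T-box transcription factor known from pituitary corticotroph cells, measured 7.13, 7.15 and 7.14 in WT and 11.68, 11.72 and 11.72 in KO libraries. Luzp1, a leucine zipper protein of the cytoskeleton, measured 7.03, 7.15 and 7.23 in WT and 11.07, 11.06 and 11.10 in KO libraries. Maged1, an adaptor of the MAGE family, measured 7.41, 7.27 and 7.38 in WT and 10.92, 10.89 and 10.94 in KO libraries. The groups were far apart in all of them, and the rises were 4.57 (SE 0.037, limma adjusted p 1.39e-16) for Tbx19, 3.94 (SE 0.044, limma adjusted p 2.37e-15) for Luzp1 and 3.57 (SE 0.040, limma adjusted p 2.40e-15) for Maged1. Amotl1, an angiomotin family protein that binds YAP, was already expressed in WT libraries, at 9.16, 9.21 and 9.06, and measured 12.36, 12.32 and 12.39 in KO libraries. Its rise was 3.21 (SE 0.043, limma adjusted p 1.50e-14), or 9.26-fold. Gm5537, a processed pseudogene whose reads may belong to a parent gene, rose by 3.49 (SE 0.070), from 7.57 to 11.05, with the widest spread of these genes in KO libraries (SD 0.15).

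The other rises of this rule were of genes of varied function. Fetub, which encodes the plasma protein fetuin B, rose by 3.01 (SE 0.049), Eng, the TGF-β co-receptor endoglin, by 2.32 (SE 0.037) and Prkch, the protein kinase C isoform eta, by 2.32 (SE 0.042). Myo7a, an unconventional myosin, rose by 2.16 and varied more than the others, with 8.76, 8.42 and 8.59 in WT and 10.69, 10.69 and 10.86 in KO libraries. Its groups did not overlap. Ndrg1, a gene induced by hypoxia, rose by 2.14, the receptor gene Megf10 by 2.09, Gem, a small GTPase, by 2.06, Abcc1, the multidrug resistance protein 1, by 1.96, Erc1, a scaffold protein, by 1.95 and the metallothionein gene Mt2 by 1.89. Below the median level, and named after their values were seen, Mmrn1, which encodes multimerin 1 of platelets and endothelium, rose by 4.26 (6.70 to 10.96) and Uaca by 3.94 (6.68 to 10.62). For any of these single genes the exact permutation test of 3 against 3 libraries gives no p below 0.1.

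**Figure D3:**
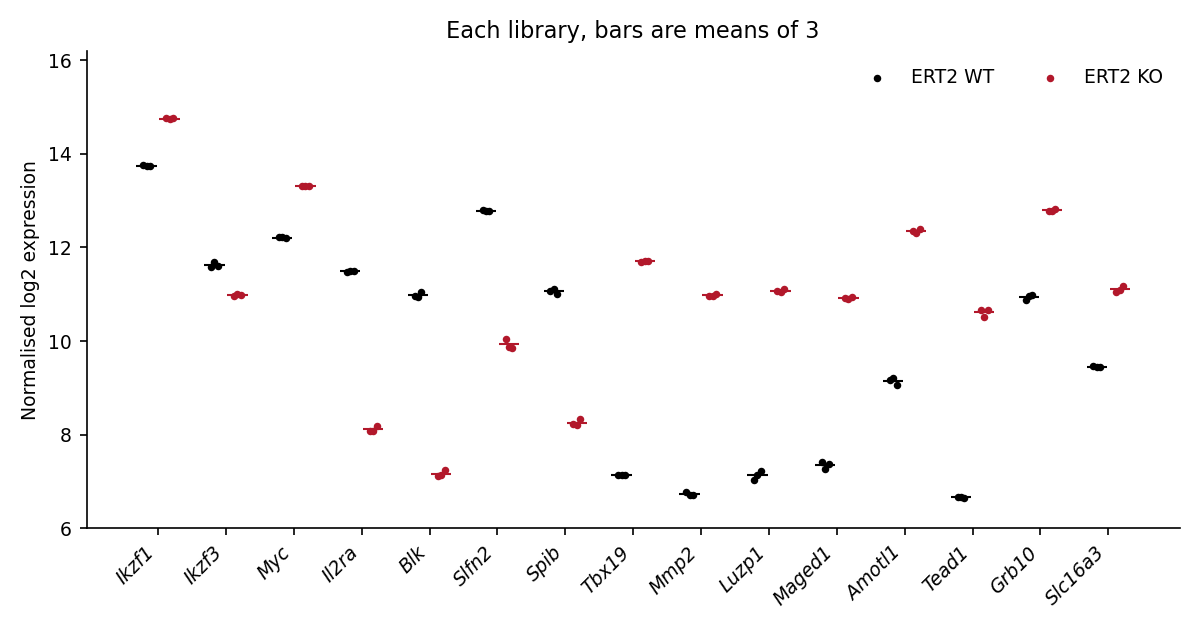
Normalised log2 expression (vertical axis) of 15 genes in each of the 3 ERT2 WT libraries (black) and 3 ERT2 KO libraries (red), with bars at the means of 3. The groups part in every gene shown, by 0.65 in Ikzf3 and by 4.57 in Tbx19, and the axis starts at 6.

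Genes were then grouped by function. Each count of members is to be read against the 29.8% of all genes called higher and the 29.3% called lower. The median difference over all genes was 0.0016. These shares were not matched to the level of a list, and more genes were called at higher levels. Of genes with a mean under 4, 30.3% were called, against 72.6% at a mean of 12 to 14. At 12 to 14, 270 of 951 genes were higher and 420 lower. The pre-B cell receptor list also holds the related Vpreb3 and the light chain gene Igkc. In KO libraries 7 of its 8 measured genes were lower and none higher, with a median difference of -0.54. Ighm, the μ heavy chain, measured 15.10, 15.09 and 15.08 in WT and 14.28, 14.30 and 14.29 in KO libraries, and thus fell by 0.80 (SE 0.018, limma adjusted p 1.20e-12). Cd79a, which encodes the signal-transducing Igα, fell by 0.79 (SE 0.022) from 15.10 to 14.31, whereas its partner Cd79b fell by 0.17 (SE 0.029). Of the surrogate light chain, Vpreb1 fell by 0.54, Vpreb2 by 0.57 and Igll1, which encodes λ5, by 0.16, and the related Vpreb3 fell by 0.54. Igkc, the κ constant region, stood at 3.95 and 3.92 and was not called.

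Of 21 genes of signaling from this receptor, all were called, 14 lower and 7 higher (median -0.29). Besides Blk and Fcgr2b, the proximal kinase Syk measured 13.67, 13.71 and 13.69 in WT and 12.81, 12.80 and 12.79 in KO libraries, and thus fell by 0.89 (SE 0.025, limma adjusted p 1.03e-11). The adaptor Blnk fell by 0.65, the kinase gene Prkcb by 0.64 and Pik3cd, the δ catalytic subunit of PI3 kinase, by 0.58. In the other direction Pik3ap1, the adaptor that brings PI3 kinase to the B cell membrane, measured 11.47, 11.42 and 11.46 in WT and 12.50, 12.48 and 12.50 in KO libraries. Pik3ap1 rose by 1.05 (SE 0.020, limma adjusted p 3.64e-13) without overlap, while the inhibitory receptor Cd22 rose by 0.46 at a low level.

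Among 28 transcription factors of the B lineage, 17 were lower and 5 higher (median -0.13). The lineage-defining factors Pax5 (13.77 in WT and 13.74 in KO libraries) and Ebf1 (a difference of -0.045, SE 0.028) were not called, nor was Lef1. Apart from Spib, the largest falls were those of Irf4 (-0.77, SE 0.027), Bach2 (-0.63, SE 0.074) and Pou2af1, the coactivator OBF1 (-0.60). Irf8, which acts with Irf4 in pre-B cell differentiation, rose by 0.96 (SE 0.028), from 11.23, 11.21 and 11.25 to 12.14, 12.18 and 12.24. The pair Irf4 and Irf8 thus differed in opposite directions, each without overlap. Pou2f2, which encodes Oct2, rose by 0.58, and Mef2c by 0.30.

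Surface antigens of B cells were lower in 16 of 25 measured members and higher in 5 (median -0.31). Beside Fcgr2b, the chemokine receptor genes Cxcr5 and Ccr7 fell by 1.27 and 1.24, the heat-stable antigen Cd24a by 1.07 (SE 0.020), from 15.01 to 13.94, and Cxcr4 by 0.53. Cd37 and Cd180 were not called. The tetraspanin Cd53 rose by 0.53 and Cd69 by 0.14. Of 14 genes of V(D)J recombination and end joining, 4 were higher and 5 lower. The recombinase genes Rag1 and Rag2 rose by 0.32 (SE 0.041) and 0.38 (SE 0.042), whereas Dntt, the terminal transferase that adds bases at the joints, fell by 0.87 (SE 0.021) from 12.64 to 11.77, the ligase gene Lig4 by 0.79 and Xrcc6, which encodes Ku70, by 0.64. Xrcc5, which encodes its partner Ku80, rose by 0.30.

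Antigen receptor segments were sparse. Of 29 measured segments, Ighm and the T cell receptor γ constant genes Tcrg-C1 and Tcrg-C2 had means above 10. The segment with the next highest mean was Ighd, at 8.78 in WT and 8.56 in KO libraries. Tcrg-C2 fell by 1.20 (SE 0.035), from 11.41 to 10.21, and Tcrg-C1 by 0.54 (SE 0.028), from 11.86 to 11.32. In the Cre-ERT2 libraries the KO minus WT difference was smaller, -0.52 for Tcrg-C2 and -0.047 for Tcrg-C1. The γ constant genes are near copies of each other and may share reads, so their values are uncertain. No heavy chain variable segment exceeded a group mean of 6.24, that of Ighv14-2 in KO libraries, where it was 0.31 higher than in WT libraries.

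Genes of cytokine receptors and the JAK-STAT5 pathway were lower in 14 of 22 measured members and higher in 4 (median -0.18). Together with Il2ra, the common β chain genes Csf2rb2 and Csf2rb fell by 1.33 (SE 0.041) and 1.02, and Il7r, the IL-7 receptor chain, by 0.82. The STAT5-induced feedback inhibitors Socs1 and Cish fell by 1.37 and 0.89. Socs1 measured 9.03, 8.84 and 8.83 in WT and 7.58, 7.36 and 7.64 in KO libraries, a wider spread than most, with no overlap. Pim2, a kinase gene, rose by 0.59 (SE 0.031), Jak2 by 0.20 and Jak1 by 0.12, although the call of Jak1 was lost after median centring.

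Of the Schlafen and SLAM genes, 9 of 15 were lower and 5 higher (median -0.18). Within the Schlafen cluster of chromosome 11, Slfn2 fell most, Slfn5 fell by 0.69 and Slfn8 by 0.38, Slfn9 was not called, and the pseudogene Slfn10-ps rose by 1.24. These genes are close copies of each other and may share reads. Slamf7, a SLAM receptor of chromosome 1, measured 10.03, 9.97 and 9.96 in WT and 7.83, 8.08 and 8.05 in KO libraries, and thus fell by 1.99 (SE 0.053, limma adjusted p 5.80e-12). The other SLAM genes divided, as Cd48 fell by 0.73 and Slamf6 by 0.65, whereas Cd244, whose ligand is CD48, rose by 0.98, Slamf9 by 0.69 and Cd84 by 0.63.

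Genes of the interferon response were lower in 21 of 28 measured members and higher in 3 (median -0.11), and 12 of the 28 stood under 7 in both groups. Gbp2 and Gbp3, guanylate-binding proteins, fell by 1.64 and 0.95, and Zbp1, a sensor of nucleic acids, by 0.87. The RNA sensor gene Ifih1 (MDA5) rose by 1.01 (SE 0.053), from 7.24 to 8.24, Bst2 by 0.54 and Oas1a by 0.28. Of 21 genes of antigen presentation, 15 were lower and 2 higher (median -0.30). B2m, the light chain of MHC class I, fell by 0.67 (SE 0.036), H2-D1 by 0.58 and the peptide-loading gene Tapbp by 0.60. For class II, Cd74, the invariant chain, fell by 0.63, whereas H2-Ab1 rose by 0.58 (SE 0.034), from 8.46 to 9.04.

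**Figure D4:**
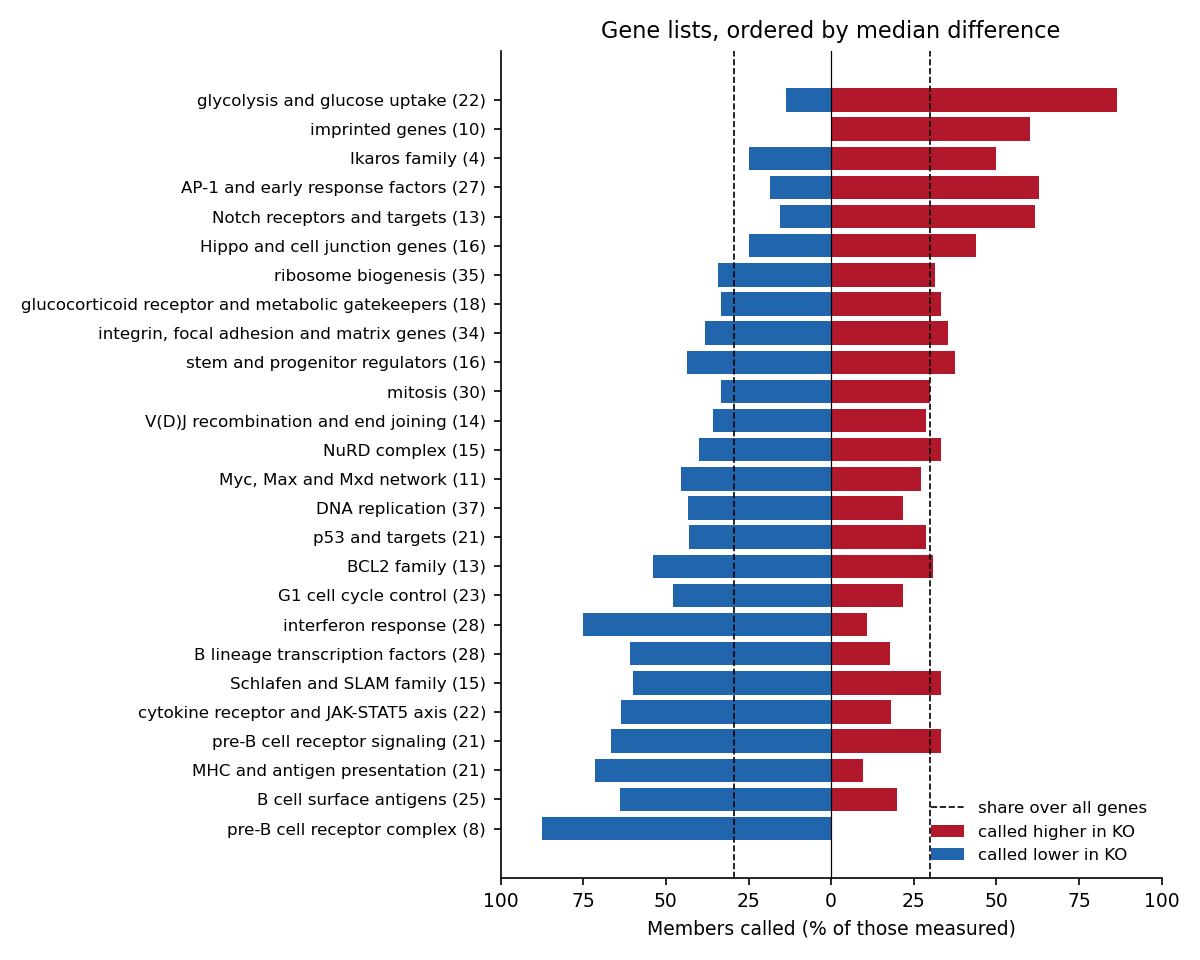
Share of the measured members of 26 gene lists called higher (red, to the right) or lower (blue, to the left) in ERT2 KO libraries, in percent, with the number measured in parentheses and the lists ordered by their median difference. The dashed lines mark the shares over all genes (29.8% and 29.3%), and glycolysis (19 of 22 higher) and the pre-B cell receptor (7 of 8 lower) are the ends.

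Myc was higher in KO libraries. It measured 12.22, 12.22 and 12.20 in WT and 13.30, 13.31 and 13.31 in KO libraries, and thus rose by 1.10 (SE 0.019, limma adjusted p 1.55e-13), or 2.14-fold, with no overlap. Of the 11 measured genes of the network around Myc, 3 were higher and 5 lower. Its partner Max was not called, Mycn fell by 0.43, and of the Max-binding repressors Mxi1 rose by 0.68 while Mxd4 and Mxd3 fell by 0.61 and 0.48. Ctnnb1, the gene of β-catenin, measured 12.44, 12.43 and 12.46 in WT and 12.57, 12.66 and 12.62 in KO libraries, and rose by 0.17 (SE 0.025, limma adjusted p 6.70e-05).

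Control of the G1 phase shifted between members rather than in 1 direction, with 5 of 23 higher and 11 lower (median -0.092). Among the D-type cyclins, Ccnd2 measured 13.75, 13.82 and 13.75 in WT and 12.65, 12.59 and 12.62 in KO libraries, and thus fell by 1.15 (SE 0.028, limma adjusted p 2.46e-12). Ccnd3 fell by 0.47, and Ccnd1 rose by 0.79 from a low level of 6.17. Their kinase Cdk6 measured 12.04, 12.07 and 11.98 in WT and 13.33, 13.30 and 13.32 in KO libraries, and thus rose by 1.28 (SE 0.034, limma adjusted p 5.30e-12), and Cdk4 was not called. E2f2, a transcription factor of S phase entry, fell by 1.04, and of the inhibitors Cdkn2c and Cdkn1a fell by 0.77 and 0.64 while Cdkn2a rose by 0.73. Replication genes (8 of 37 higher, 16 lower), mitotic genes (9 of 30 and 10) and genes of ribosome biogenesis (11 of 35 and 12) had medians of -0.048, -0.0084 and 0.014, and after quantile normalization 5 mitotic and 7 ribosome biogenesis genes were lower. Their differences were modest, with Npm1, a nucleolar gene, as the largest rise of these lists (0.48) and Rrp12, of ribosome biogenesis, as the largest fall (-0.42).

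Of the gene lists, glycolysis had the largest median difference. All 22 measured members were called, 19 higher and 3 lower, with a median difference of 0.75. Slc16a3, the lactate exporter MCT4, measured 9.46, 9.45 and 9.46 in WT and 11.05, 11.09 and 11.18 in KO libraries, and thus rose by 1.65 (SE 0.036, limma adjusted p 1.10e-12). Hk1, a hexokinase gene, measured 9.50, 9.52 and 9.50 in WT and 10.98, 11.01 and 11.01 in KO libraries, and thus rose by 1.49 (SE 0.040, limma adjusted p 6.83e-12). Slc2a1, which encodes the glucose transporter GLUT1, rose by 1.05 (SE 0.040), from 10.72, 10.75 and 10.68 to 11.70, 11.74 and 11.86. None of these overlapped between groups. The enzymes along the pathway rose too, among them Hk2 (0.78), Pfkl (0.74), Pfkm (1.03), Aldoa (0.87), Tpi1 (0.80), Pgk1 (0.79), Pgam1 (0.76), Eno1 (0.59), Pkm (0.79) and Ldha (0.59). Pdk1, a gene of a pyruvate dehydrogenase kinase, rose by 0.89. The exceptions were Slc2a6, a transporter gene that fell by 0.77, Pfkfb3, which fell by 0.28, and Slc16a1, the lactate transporter MCT1, which fell by 0.23. Among 18 genes of the glucocorticoid receptor and of energy sensing, 6 were higher and 6 lower. Nr3c1, the receptor itself, fell by 0.41 and its target Sgk1 by 0.55, whereas the glucocorticoid-responsive genes Per1 and Ddit4 rose by 0.92 and 0.71. Prkaa1, a catalytic subunit of AMPK, spread widely in KO libraries (8.02, 7.30 and 6.90) and was not called, and Txnip stood at 11.72 and 11.71.

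Genes of adhesion and matrix changed in both directions, 12 of 34 higher and 13 lower (median -0.0018). Mmp2, a matrix-degrading gelatinase, measured 6.77, 6.73 and 6.71 in WT and 10.97, 10.96 and 11.01 in KO libraries, and thus rose by 4.24 (SE 0.027, limma adjusted p 3.66e-17). The focal adhesion genes Pxn (paxillin) and Vcl (vinculin) rose by 1.07 and 0.98, and the integrin β1 gene Itgb1 by 0.72. Itgb2, the β chain of leukocyte integrins, fell by 1.34 (SE 0.048), Cd47 fell by 1.14 and Itga6 fell by 0.63. In the list of Hippo and junction genes 7 of 16 were higher and 4 lower (median 0.027). Tead1, the DNA-binding partner of YAP, measured 6.67, 6.68 and 6.66 in WT and 10.67, 10.51 and 10.66 in KO libraries, and thus rose by 3.94 (SE 0.041, limma adjusted p 1.17e-15). Ctnna1, the gene of α-catenin, rose by 1.48 (SE 0.023), while the kinase genes Stk4 and Stk3 fell by 0.69 and 0.21. Yap1 and Wwtr1 were not among the genes analysed here.

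Notch genes were higher in 8 of 13 measured members and lower in 2 (median 0.098). Dtx4 rose by 0.71, Hes1, a classical Notch target, by 0.44 at a level under 7, and Notch2 by 0.42, whereas Maml2, which encodes a coactivator, fell by 0.20 and Notch1 was not called. Regulators of stem and progenitor cells divided, 6 of 16 higher and 7 lower (median -0.0058). Tal1, Lmo2 and Lyl1 encode members of 1 transcription factor complex and rose by 0.74, 0.64 and 0.51. Their WT means were 6.57, 6.86 and 9.90, the first 2 at a level that can be a gene's own floor. In contrast Ly6a, which encodes the stem cell antigen Sca-1, fell by 1.57 from 8.29 and Satb1 by 0.75 from 6.90. Kit, Gata2 and the Hoxa genes of the list were not among the genes analysed here.

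Of 10 measured imprinted genes, 6 were higher and none lower, with a median of 0.19, although 2 were lower after each library was centred on its median. H19, a noncoding RNA of fetal tissues, measured 7.02, 6.67 and 6.66 in WT and 10.07, 10.10 and 10.15 in KO libraries, and thus rose by 3.32 (SE 0.075, limma adjusted p 1.27e-12). Its neighbour Igf2 rose by 0.68, from 5.34 to 6.02, and Grb10 by the 1.86 given with the neighbours of Ikzf1, while Igf2r was not called. Early response factors were higher in 17 of 27 and lower in 5 (median 0.13). The feedback inhibitors of the ERK pathway made up several of the rises, with Spry4 (0.70), Dusp6 (0.51), Dusp4 (0.51) and Spred1 (0.48), and Dusp5 fell by 0.39. Ier3 and Ier2 rose by 0.91 and 0.69, and Jun and Jund fell by 0.64 each. Fos stood at 3.73 and 3.75 and was not called.

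The NuRD complex, through which Ikaros acts, was present with 15 of 15 genes, 5 higher and 6 lower (median -0.012). Chd4, its remodeling ATPase, rose by 0.33 (SE 0.021) and Mta1 by 0.33 (SE 0.030), whereas Cdk2ap2 fell by 0.43 and Mbd2 by 0.25. Of 13 BCL2 family genes, 4 were higher and 7 lower (median -0.086). The antiapoptotic genes Bcl2 and Mcl1 fell by 0.97 (SE 0.036) and 0.52 (SE 0.022), the proapoptotic Bmf fell by 1.01 (SE 0.045), Bcl2l2 rose by 0.52 and Bcl2l1, which encodes BCL-XL, was not called. Of 21 genes of p53 and its targets, 6 were higher and 9 lower (median -0.069). Beyond Btg2, Cdkn1a fell by 0.64 and Aen by 0.43, Zmat3 rose by 0.51, and Mdm2 was not called.

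The libraries carried the markers of B lineage cells, with all 10 measured and a summed level (log2 of the summed unlogged values) of 17.16 to 17.19 in WT libraries and 16.64 in each KO library. Of these 10 markers, 8 were called lower and 2 were not called. In bulk samples fewer cells of a type and less RNA per cell cannot be told apart. Of 16 T cell markers 3 were among the genes analysed here (Cd2, Lck and Cd5), not Cd3e or Cd4. The summed level of the 3 was 11.12 to 11.17 in WT and 9.68 to 9.79 in KO libraries. Among them 2 were called lower and 1 higher (0.13), and 1 stood under 7 in both groups. Of 12 NK cell markers 3 were measured, and the sum was 7.15 to 7.16 in WT and 8.75 to 8.82 in KO libraries, with Nkg7, a granule protein gene, at 6.60 in each WT library and 8.60, 8.61 and 8.68 in KO libraries. Nkg7 was the only NK marker called higher, 1 was called lower, and the median difference of the 3 was -0.014. Prf1, Gzma and Gzmb were not among the genes analysed here. For 18 myeloid markers 5 were measured, with sums of 8.06 to 8.07 and 8.69 to 8.76, of which Lyz2, the lysozyme gene, rose by 0.99. Of these 5, 2 were called higher and 2 lower, by up to 0.36, and 4 stood under 7 in both groups. Plasmacytoid dendritic cell markers (3 of 7) had sums of 11.45 to 11.56 and 12.19 to 12.25, with Tcf4, which rose by 0.77, and plasma cell markers (6 of 8) had sums of 14.10 to 14.14 and 13.53 to 13.55, with Mzb1, which fell by 0.51. Among the plasmacytoid markers 2 were called higher and 1 lower (-0.99), and among the plasma cell markers 1 higher and 4 lower. Of 12 stromal and endothelial markers Pecam1 alone was measured and fell by 1.03, and none of 14 erythroid or 8 mast cell markers was measured. The part of other cells in the differences above was not tested.

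Because Ikaros family proteins recognise GGGAA, the 250 bases before the annotated start (RefSeq, GRCm38.p6) are shown for a pair of large falls, Il2ra and Slfn2, and a pair of large rises, Tbx19 and Maged1. Capitals mark GGGAA or its reverse complement TTCCC.
Il2ra, chr2:11642542-11642791, plus strand: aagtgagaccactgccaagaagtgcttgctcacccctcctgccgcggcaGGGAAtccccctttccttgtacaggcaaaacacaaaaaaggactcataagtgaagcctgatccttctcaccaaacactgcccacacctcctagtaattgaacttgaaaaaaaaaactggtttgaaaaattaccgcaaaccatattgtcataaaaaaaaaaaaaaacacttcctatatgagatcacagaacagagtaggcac
Slfn2, chr11:83064862-83065111, plus strand: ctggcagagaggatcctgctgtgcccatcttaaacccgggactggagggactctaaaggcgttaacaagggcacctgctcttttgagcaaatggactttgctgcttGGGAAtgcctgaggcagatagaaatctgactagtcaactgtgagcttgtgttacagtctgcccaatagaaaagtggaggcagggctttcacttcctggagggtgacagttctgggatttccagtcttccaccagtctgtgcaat
Tbx19, chr1:165160774-165161023, minus strand: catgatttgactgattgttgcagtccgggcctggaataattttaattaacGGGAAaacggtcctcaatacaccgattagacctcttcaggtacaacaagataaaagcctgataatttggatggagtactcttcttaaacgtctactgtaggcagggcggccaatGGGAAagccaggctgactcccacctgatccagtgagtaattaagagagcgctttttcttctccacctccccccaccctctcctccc
Maged1, chrX:94542026-94542275, minus strand: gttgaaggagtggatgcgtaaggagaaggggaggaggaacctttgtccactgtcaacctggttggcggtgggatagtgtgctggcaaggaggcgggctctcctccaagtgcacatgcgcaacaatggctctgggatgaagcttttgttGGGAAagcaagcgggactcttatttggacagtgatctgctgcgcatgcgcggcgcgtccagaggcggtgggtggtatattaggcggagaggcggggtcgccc
The windows hold 1 match in Il2ra, Slfn2 and Maged1 and 2 in Tbx19. GGGAA is short and common, so the share of promoters that hold it, on either strand within 300 bases (250 before and 50 after the start), was counted over all of them. Of the 50 largest rises 31 genes had a window, and 68.1% of their 47 windows held the motif. Of the 50 largest falls 29 genes had one, and the share was 71.4% of 35. Over the 8566 genes of the table with a window it was 64.5%, and over all 32851 windows of the reference 62.7%. The longer TGGGAA, which contains GGGAA, or its reverse complement TTCCCA, was held by 29.8% of windows of the rises, 22.9% of those of the falls and 22.8% of those of the table. A match is no sign of binding, and binding elsewhere is not seen in these windows.

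The differences were spread over the genome. Among genes with a mean above 8, the median difference of each autosome lay between -0.039 (chromosome 17) and 0.027 (chromosome 18). The 15 mitochondrial genes had a median of -0.11, with 5 lower and 2 higher. In 7216 overlapping runs of 25 neighbouring genes the median difference lay between -0.24 and 0.22, and none reached 0.25 in either direction. Whether copy number differed between the lines was not tested. The lowest run lay on chromosome 8 (71708387 to 78821140) and the highest on chromosome 4 (8535644 to 21767212), with medians of -0.20 and 0.30 in the Cre-ERT2 libraries. Of the Y-linked genes Uty, Kdm5d, Eif2s3y and Ddx3y, each was measured in both groups, with differences between -0.10 and 0.13, and the calls of all but Uty were lost in several alternatives.

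The same difference in the Cre-ERT2 libraries, in which β-catenin was stabilized, shares no library with the one above. The study describes clonal lines, edited or control, that were then given either vector. Both comparisons can therefore carry the same differences between lines, and both came from the same fit. All 238 genes that differed by at least 1 in ERT2 libraries were called in the Cre-ERT2 libraries in the same direction, 210 of them by at least 1. Over all 12151 genes, 7161 were called in the Cre-ERT2 libraries, 254 of them with a size of at least 1. For the 238 genes the ratio of the Cre-ERT2 to the ERT2 difference had a median of 0.988 and quartiles of 0.913 and 1.06. Since the 238 genes were chosen by their size in the ERT2 libraries, the ratio is a description. The difference between vectors was tested for each gene as an interaction. It was called for 550 genes (4.53%), and for 64 of the 238, a choice that used the same libraries. Among the members described here, the fall of Ccnd2 was larger in ERT2 libraries (1.15) than in Cre-ERT2 libraries (0.68), as was that of Dntt (0.87 and 0.40), of Syk (0.89 and 0.52) and of Irf4 (0.77 and 0.52). The rise of Mmp2 was smaller (4.24 and 5.33), as was that of Myc (1.10 and 1.41), of Dtx4 (0.71 and 1.74), of Lmo2 (0.64 and 1.42) and of Cdkn2a (0.73 and 1.34), all with a called interaction. For Tbx19 the difference between vectors was -0.046 (SE 0.052), for Il2ra -0.013 (SE 0.044) and for Spib -0.0061 (SE 0.057), none of them called. Blk missed the threshold narrowly, with a difference between vectors of -0.21 (SE 0.055, limma adjusted p 0.0536).

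**Figure D5:**
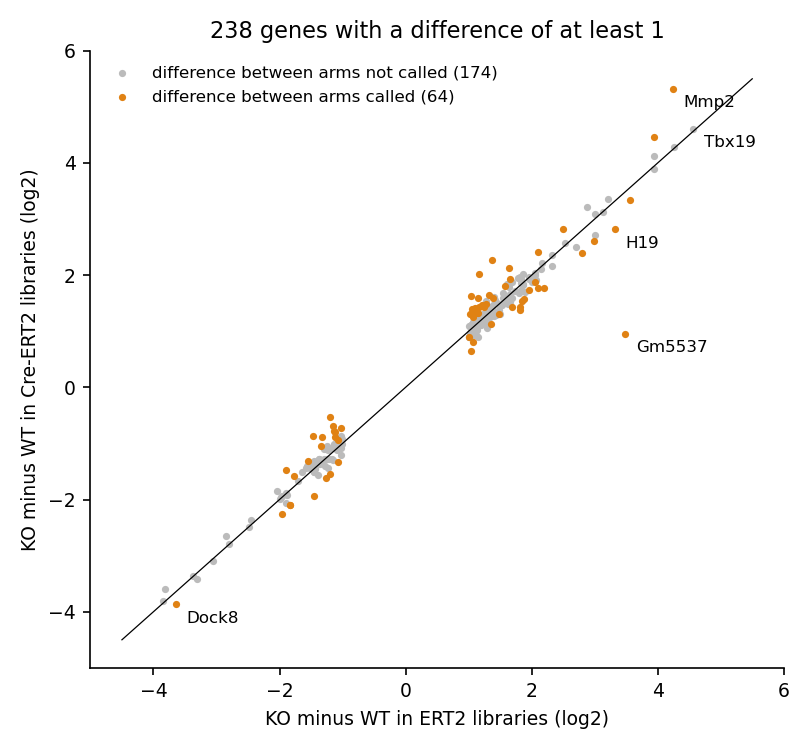
KO minus WT difference in Cre-ERT2 libraries (vertical axis, log2) against that in ERT2 libraries (horizontal axis, log2) for the 238 genes with a called difference of at least 1 in ERT2 libraries, orange where the difference between vectors was called (64 genes) and grey where not (174). The points lie along the line of equality, and Gm5537 (3.49 and 0.96) lies farthest below it.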

How the data were processed

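Libraries for RNA-seq (280 ng of input RNA, 10 PCR cycles) numbered 3 in each of 4 groups, and all 12 entered the fit. Per the submitters' processing notes and the study's methods, the authors used Salmon 1.4.0, STAR 2.7.6 and DESeq2 1.30.1 with mm10/GRCm38. The deposited values are log2 expression normalised by the authors; the kind of transformation and the choice of the 12151 genes are not given in the sources used here. Low values appear compressed, which was not tested, so differences of weakly expressed genes may be understated. No counts were used, so depth and counting error are unknown, and the number of libraries limits the precision. Library medians lay between 9.06 and 9.11. No pair of replicates held identical values.

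Genes were tested without further scaling with limma 3.58.1 (R 4.3.3), with 4 group means, a mean-variance trend and Benjamini-Hochberg adjustment over all genes. The threshold for a call was an adjusted p of 0.05. The script was tested on simulated data. Positions came from GENCODE M21 (12111 genes matched, 40 did not), and promoters from RefSeq tables of GRCm38.p6. Members and lists were chosen with earlier results of these data known. Named were the edited genes with Ctnnb1 and Myc, the 15 largest rises and 15 largest falls above the median level without overlap, up to 3 rises and 3 falls of each list, all members of lists of at most 8, and the highest marker of each cell type; a few genes that this rule names are not reported here. Other members, and genes named outside the lists, were chosen after their values were seen. Alternatives changed the libraries fitted, the replicate block, the variance prior, the scaling, a pseudocount, a filter on low values, the threshold, and left out each library in turn.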

Additional observations from a re-analysis of the deposited data

Results flagged for a closer look

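Each value here is the KO minus WT difference in ERT2 libraries less that in Cre-ERT2 libraries (log2), tested as an interaction by limma, and each gene is given because that difference was called, with an adjusted p from 8.20e-09 to 0.0491 over the genes listed. Over all genes 550 were called. Groups of 3 were too small to be searched for single outlying libraries.

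Among genes of the pre-B cell receptor, its signaling and the B lineage, the interaction was -0.37 for Syk, -0.25 for Irf4, -0.43 for Rasgrp1, -0.47 for Dntt, 0.35 for Cxcr5, 0.13 for Xrcc5 and 0.079 for Igkc, the latter at a level near 4 at which its own difference in ERT2 libraries was not called. Ikzf1 itself had 0.10 (adjusted p 0.0422). Among cytokine receptor, SLAM and marker genes it was -0.44 for Csf2rb2, 0.19 for Pim2, -0.64 for Cd244 and -0.24 for Lyz2.

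For growth and metabolism it was -0.31 for Myc, -0.47 for Ccnd2, -0.61 for Cdkn2a, -0.29 for Slc16a3, -0.23 for Slc16a1 and -0.24 for Btg2. Slc16a1 had differences of -0.23 in ERT2 and -0.00053 in Cre-ERT2 libraries. Among stem cell, Notch and early response genes it was -0.78 for Lmo2, -1.03 for Dtx4 and -0.19 for Dusp5.

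For adhesion and junction genes it was -1.08 for Mmp2, -0.19 for Pxn, -0.21 for Vcl, 0.18 for Itga6, 0.16 for Ctnna1, -0.12 for Stk4 and -0.19 for Sdc4. For the imprinted pair it was 0.50 for H19 and 0.50 for Igf2. Among the other genes of largest change it was 2.53 for Gm5537, 0.22 for Maged1, 0.32 for Megf10, 0.22 for Erc1 and 0.26 for Tubb2b. Gm5537 had WT values of 7.57, 7.57 and 7.56 in ERT2 and of 10.60, 10.60 and 10.47 in Cre-ERT2 libraries, and KO values of 11.06, 11.20 and 10.91 and of 11.62, 11.39 and 11.54. As a processed pseudogene it may share reads with another gene.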

How the results depend on the processing

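The count of called genes lay between 5126 (mean above 8) and 7613 (median centring) over the alternatives, against 7175, and without each ERT2 library in turn between 6609 and 6721, with 3329 to 3397 higher, 3256 to 3328 lower and 234 to 240 of a size of at least 1. For the Cre-ERT2 libraries these ranges were 6690 to 6845 called and 251 to 256 of that size, and for the interaction 385 to 448 called and 7 of that size. With only genes of a mean above 8 kept, fewer genes were tested, 2348 were higher, and the interaction was called for 337 genes and for 4 of a size of at least 1. At an adjusted p under 0.01 the interaction was called for 240 genes, and with 32 added to the unlogged values 4 reached a size of 1.

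Each library was taken as deviations from its group mean over the 7729 genes with a mean above 8. These deviations correlated at -0.029, 0.038 and 0.099 between same-numbered ERT2 WT and KO libraries. The numbers were therefore not taken to pair the samples. With the replicate block 7089 genes were called over 12 libraries and 6876 over the 6 ERT2 libraries alone.

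Of single genes, Mxd1 turned to -0.0085 after quantile normalization and H2-Aa to -0.0068 after median centring, neither called, and the cause was not tested. Over the alternatives 36 values of 7 genes (Ddx3y, Eif2s3y, Kdm5d, H2-Aa, Hes5, Jak1 and Mxd1) lost their call. Ikzf5 (-0.21, without KO replicate 2) and Igkc (-0.060 after median centring and -0.040 after quantile normalization) became called. The other 3150 values over the 179 named genes kept their direction and their side of the threshold, as did 135 of 140 counts over all genes within 1.5 times. In 33 cases over 17 list counts the count of members moved by more than that.

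Depth was not known and low values appeared compressed, so the size of a difference at low level cannot be told from these libraries. KO and WT lines differ by clone as well as by editing, so the source of a difference cannot be told from them either.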
